A study of Mus musculus with 2 samples.

Results

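The lectin-like receptors of natural killer cells were examined in OT-I CD8+ T cells with and without Eomes overexpression. The genes are *Klrb1c*, *Klrk1*, *Klrd1*, *Klrc1*, *Klrc2*, *Klre1* and *Klrg1*, receptor genes of the natural killer complex region of mouse chromosome 6, together with *Hcst*, an adaptor gene on chromosome 7. They were listed by name with earlier results of these data known. Not every expressed receptor gene of the complex is among them, and *Klra5* is left out. All 8 genes had a value in both libraries, among 14732 gene symbols listed for at least 1 library. OT-I mice carry a transgenic T cell receptor for the ovalbumin peptide SIINFEKL presented by H-2Kb. The CD8+ T cells came from lymph nodes and spleens of transgenic animals aged 6 to 8 weeks on the C57BL/6 background. They were activated for 24 h with peptide (2.5 ng/mL) and IL-2 (10 U/mL), transduced with a retroviral vector (RVKM) carrying Eomes and an IRES-hCD2 cassette or with the empty vector, and sorted as hCD2+ cells 48 h later. Both cultures were then restimulated for 3 days with peptide and IL-2 at those doses, 40000 cells to a well, and 1 RNA library was sequenced from each. Expression of Eomes was thus driven by a vector, and the empty vector was carried by the control cells. The groups are named control and Eomes-overexpressing OT-I cells.

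C-type lectin-like receptors are surface proteins encoded side by side in the natural killer complex. Some carry inhibitory motifs in their own tail, and others have no signalling motif and transmit through a small adaptor in the membrane, such as DAP10 (encoded by *Hcst*), DAP12 (*Tyrobp*) or the Fc receptor gamma chain (*Fcer1g*). Natural killer cells use them to weigh class I molecules and stress-induced ligands on a target cell, and activated CD8+ T cells acquire a subset of them.

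The values are FPKM, fragments scaled by transcript length and library size, which the study's methods call RPKM, and levels are therefore compared between genes per length. A log2 ratio above 0 means a higher level with Eomes overexpression. With 1 library per condition there is no replicate error and no test between the conditions, and a difference is described by its size against a 1.5-fold threshold and against other genes. A gene was called expressed at an FPKM of at least 1 in at least 1 library. The 2 libraries were of similar depth, about 20.65 M reads for control and 20.55 M for Eomes-overexpressing cells as estimated from low FPKM values and transcript lengths. Intervals are 95% Clopper-Pearson intervals on reads approximated from that depth and the shortest RefSeq-linked coding transcript, and they cover counting error only. *Eomes* itself was at an FPKM of 2.47 in control and 129.6 with Eomes overexpression, and vector-derived and endogenous transcripts cannot be told apart under this symbol.

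*Klrb1c* and *Klrg1* were higher with Eomes overexpression, past both the 1.5-fold threshold and the central range of genes of similar level. *Klrd1*, *Klrc1* and *Klrk1* were lower in value, and none of them passed both. *Klrc1* was past the threshold only, *Klrd1* was past the range only, and *Klrk1* was past neither. These placings depend on the band edges and on the setting. With GC centring *Klrd1* (-0.79) and *Klrk1* (-0.68) were past the threshold as well. The intervals of *Klrd1*, *Klrc1* and *Klrk1* cover counting error only and do not test for a difference between the cultures. *Klrb1c* was 18.5-fold and *Klrg1* 3.47-fold higher in Eomes-overexpressing OT-I cells. *Klrc1* was 1.54-fold, *Klrd1* 1.45-fold and *Klrk1* 1.34-fold lower. *Klrc2* was 1.68-fold lower in value, on so few reads that its direction is uncertain from counting error alone. *Klre1* and *Hcst* differed by less than 1.1-fold.

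The promoter of *Klrb1c*, the gene with the largest difference, is shown with those of *Klrk1*, *Klrc1* and *Klrc2*, whose log2 ratios were under 0, so that the upstream sequence of genes of one complex can be read side by side. Each is the run of 250 bases upstream of a RefSeq start site on GRCm38.p6 (mm10), written 5′ to 3′ on the strand of the gene. The window of *Klrb1c* lies within the gene span given below, which begins further upstream. That of *Klrc2* overlaps its gene span in part. Capitals mark TGTGGT, the RUNX site, or its reverse complement ACCACA.
*Klrb1c* (minus strand, chr6:128788642-128788891): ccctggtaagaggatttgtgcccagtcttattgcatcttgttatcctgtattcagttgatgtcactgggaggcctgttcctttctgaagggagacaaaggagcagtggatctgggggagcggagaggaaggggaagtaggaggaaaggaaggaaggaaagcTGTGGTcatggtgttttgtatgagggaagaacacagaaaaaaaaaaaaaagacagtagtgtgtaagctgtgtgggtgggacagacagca
*Klrk1* (minus strand, chr6:129623865-129624114): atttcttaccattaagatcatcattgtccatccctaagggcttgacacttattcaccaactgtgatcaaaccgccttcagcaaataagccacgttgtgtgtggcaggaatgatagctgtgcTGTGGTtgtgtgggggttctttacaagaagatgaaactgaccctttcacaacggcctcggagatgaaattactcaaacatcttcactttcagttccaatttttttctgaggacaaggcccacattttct
*Klrc1* (minus strand, chr6:129678974-129679223): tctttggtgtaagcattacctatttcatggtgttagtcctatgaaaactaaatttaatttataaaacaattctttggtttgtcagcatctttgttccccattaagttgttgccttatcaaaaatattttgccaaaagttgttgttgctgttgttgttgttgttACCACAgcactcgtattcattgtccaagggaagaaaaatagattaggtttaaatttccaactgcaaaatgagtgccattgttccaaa
*Klrc2* (minus strand, chr6:129660597-129660846): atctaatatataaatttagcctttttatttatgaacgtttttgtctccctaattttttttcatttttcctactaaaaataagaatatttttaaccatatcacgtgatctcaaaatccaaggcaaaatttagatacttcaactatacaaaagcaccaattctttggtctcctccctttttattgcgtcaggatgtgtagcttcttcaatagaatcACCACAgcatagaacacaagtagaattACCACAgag

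Promoter sequence was matched for 6 of the 8 genes, *Klrb1c*, *Klrk1*, *Klrc1*, *Klrc2*, *Klre1* and *Hcst*. The RUNX letters were in an upstream window of 5 of these 6, all except *Hcst*, and in 14.0% of 32851 upstream windows of all genes. These are unlike units here and for the motifs below. *Klrc2* and *Klre1* have 2 windows each, and a match in either counted, whereas the percentages are per window. In *Klrb1c* they lie from -89 to -84 relative to the start site, in *Klrk1* from -129 to -124 and in *Klrc1* from -87 to -82. In *Klrc2* they occur at -36 to -31 and again at -9 to -4 of the start site shown. In *Klre1* they occur at -229 to -224 of 1 of its 2 start sites, and both windows lie within its gene span. Eomes belongs to the T-box factors, whose half-site AGGTGTGA (reverse complement TCACACCT) was in the windows of 0 of the 6 genes and in 1.12% of all windows. The shorter core GTGTGA (reverse complement TCACAC), which is contained in the half-site, was in 1 of the 6, at -42 to -37 of a second *Klre1* start site, and in 12.3% of all windows. The motifs were chosen after the sequences had been read, and a match is a run of letters, not a measured binding site. At 1.12% per window, a half-site count of 0 among 6 genes is likely in any case. The paper placed most Eomes binding in introns or intergenic regions, many kilobases from start sites and beyond the reach of these windows.

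*Klrb1c* encodes NKR-P1C, the NK1.1 antigen of C57BL/6 mice, an activating receptor that signals through the Fc receptor gamma chain. The gene lies on chromosome 6 of mm10 from 128778485 to 128789215, on the minus strand. Its FPKM was 0.31 in control and 5.74 with Eomes overexpression. The gene thus went from a trace to a moderate level, and it passed the minimum for expression only through the Eomes-overexpressing library. The log2 ratio of 4.21 rests on about 10 and 190 reads (interval 3.34 to 5.34). It was the 5th highest among 9925 expressed genes. Of the 50-base stretches of its longest linked transcript, 18.1% also occur in transcripts of other genes, mostly the annotated gene *Gm44511* with 13.9%, while *Klrb1a* and *Klrb1b* share 2.91% and 2.87%.

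*Klrg1* encodes an inhibitory receptor for cadherins that marks terminally differentiated effector T cells. It lies apart from the complex proper, on chromosome 6 from 122270596 to 122282882. Its FPKM was 0.45 in control and 1.56 with Eomes overexpression, so it too was expressed only in the latter. The log2 ratio of 1.79 rests on about 13 and 44 reads (interval 0.85 to 2.78). Its position was 23 of 9925. The level was low in both libraries beside that of *Klrk1*.

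**Figure D1:**
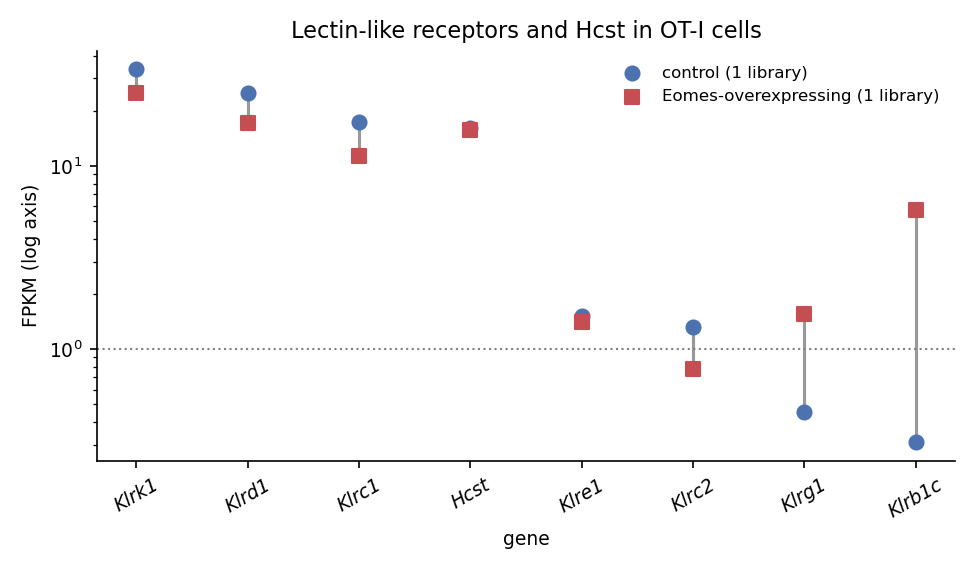
FPKM of the 7 receptor genes and *Hcst* on a log axis, with control as circles, Eomes-overexpressing cells as squares, 1 library each, and the dotted line at an FPKM of 1. *Klrb1c* and *Klrg1* lie under the line in control and above it in Eomes-overexpressing cells, whereas *Klrk1*, *Klrd1* and *Klrc1* stay above 10 in both.

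*Klrk1* encodes NKG2D, an activating receptor for stress-induced ligands, and was the most abundant of the 7 receptor genes in both libraries. It lies on chromosome 6 from 129610323 to 129623864. Its FPKM was 33.6 in control and 25.1 with Eomes overexpression. The log2 ratio of -0.42 (interval -0.59 to -0.26, from about 673 and 499 reads) was within 1.5-fold. *Hcst*, which encodes the adaptor that carries the signal of NKG2D, was at an FPKM of 16.1 in control and 15.7 with Eomes overexpression. Its log2 ratio was -0.03 (interval -0.40 to 0.33). *Klrk1* transcripts were 2.09 times those of *Hcst* in control and 1.60 times in Eomes-overexpressing cells, per length.

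*Klrd1* encodes CD94, which forms heterodimers with NKG2A (*Klrc1*) or NKG2C (*Klrc2*). The pair with NKG2A is inhibitory and the pair with NKG2C is activating, and both bind the non-classical class I molecule Qa-1. *Klrd1*, from 129591782 to 129598775, was at an FPKM of 24.96 in control and 17.23 with Eomes overexpression. This was a log2 ratio of -0.53 (interval -0.75 to -0.32, from about 436 and 299 reads), within 1.5-fold. *Klrc1*, from 129666015 to 129678973, was at 17.3 and 11.3 FPKM, respectively. Its log2 ratio of -0.62 was just past 1.5-fold, and its interval of -0.93 to -0.31 spans the threshold of -0.58. *Klrc2*, from 129647496 to 129660689, was near the minimum, at an FPKM of 1.31 in control and 0.78 with Eomes overexpression. Its log2 ratio of -0.75 rests on only about 18 and 11 reads. The interval of -1.93 to 0.46 includes 0, so its direction is uncertain from counting error alone.

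The inhibitory subunit prevailed over the activating one in both libraries. The level of *Klrc1* was 13.2 times that of *Klrc2* in control and 14.4 times in Eomes-overexpressing cells. However, the 2 genes share sequence. Of the 50-base stretches of the longest linked *Klrc1* transcript 38.1% also occur in any annotated *Klrc2* transcript. Of those of the longest linked *Klrc2* transcript 15.4% occur in *Klrc1* and 26.6% in *Klrc3*. The assignment of reads between these genes is therefore uncertain. The transcripts also differ in length, so the sum of the FPKM values depends on the assignment too. This sum was 18.6 in control and 12.0 with Eomes overexpression (log2 ratio -0.63). *Klrd1* was at 1.34 and 1.43 times this sum, so the ratio of the receptor partners differed little between the 2 libraries.

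*Klre1* encodes a receptor that pairs with KLRI1 or KLRI2. The gene is located from 129577905 to 129585827, next to *Klrd1*. Its FPKM was 1.51 in control and 1.40 with Eomes overexpression, with a log2 ratio of -0.11 (interval -0.80 to 0.58). *Klri2*, its possible partner, was at 0.30 and 0.13 FPKM, from about 24 and 10 reads (interval of the log2 ratio -2.48 to -0.14).

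Past the 1.5-fold threshold, 2 of the 8 genes were higher with Eomes overexpression, 2 were lower, and 4 lay within it. Among all 9925 expressed genes, 2.46% were higher and 5.19% lower by that measure. The median log2 ratio was -0.27 over the 8 genes and -0.0037 over all expressed genes. *Klrb1c* and *Klrg1* entered the count through the Eomes-overexpressing library alone, and *Klrc2* through control alone, so their differences were partly required by the minimum. The spread of log2 ratios depends on the level. Among genes with a mean FPKM of 2 to 5 the central 95% ran from -1.06 to 0.72, and *Klrb1c* lay far above it. From 0.5 to 2 it ran from -1.65 to 1.07, with *Klrg1* above it and *Klrc2* and *Klre1* inside. From 5 to 20 it ran from -0.69 to 0.50, with *Klrc1* and *Hcst* inside. From 20 to 100 it ran from -0.46 to 0.40, with *Klrd1* below it and *Klrk1* just inside. The mean FPKM of *Klrd1* was 21.1, near the lower edge of this band, and its ratio lay inside the range of the 5 to 20 band.

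**Figure D2:**
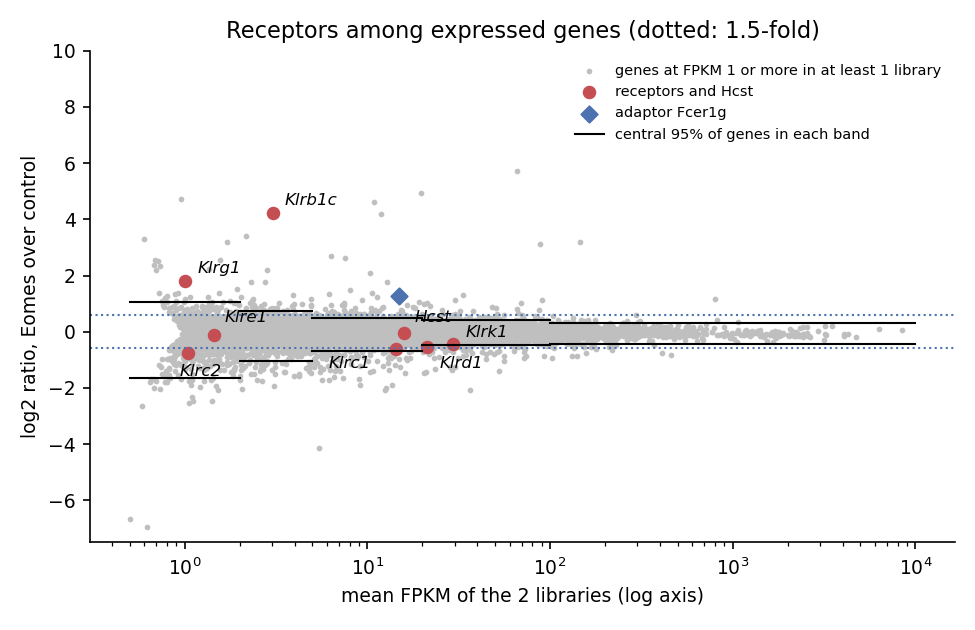
Log2 ratio (Eomes over control) against the mean FPKM of the 2 libraries (log axis) for the 9925 expressed genes, with the receptors and *Hcst* as red circles, *Fcer1g* as a blue diamond, black lines around the central 95% of genes in each level band and dotted lines at 1.5-fold. *Klrb1c* at 4.21 and *Klrg1* at 1.79 stand clear of their bands, while *Klrd1* lies just under the lower line of its band and *Klrk1* and *Klrc1* just inside theirs.

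The ratios of all genes varied with the GC content of the transcript, and the low-GC receptor genes lay on the other side of 0 from the median of low-GC genes. The longest transcripts of 5 of the 8 genes, *Klrk1*, *Klrd1*, *Klrc1*, *Klrc2* and *Klre1*, have a GC content under 42%, and the 1158 expressed genes at or below 42% had a median log2 ratio of 0.23, whereas these 5 ranged from -0.75 to -0.11. When log2 ratios were centred on genes of similar GC content, *Klrk1* was at -0.68, *Klrd1* at -0.79, *Klrc1* at -0.88 and *Klrc2* at -1.01. All 4 were then more than 1.5-fold lower, in place of 2. Of all expressed genes 485 were lower after this centring, in place of 515, and 197 were higher, in place of 244. *Klrb1c* and *Klrg1* were at 4.16 and 1.73 after this step. Conversely, with 1 FPKM added to both values no gene of the 8 was more than 1.5-fold lower, and *Klrb1c* and *Klrg1* were at 2.36 and 0.82. Of all expressed genes 118 were then higher and 285 lower.

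**Figure D3:**
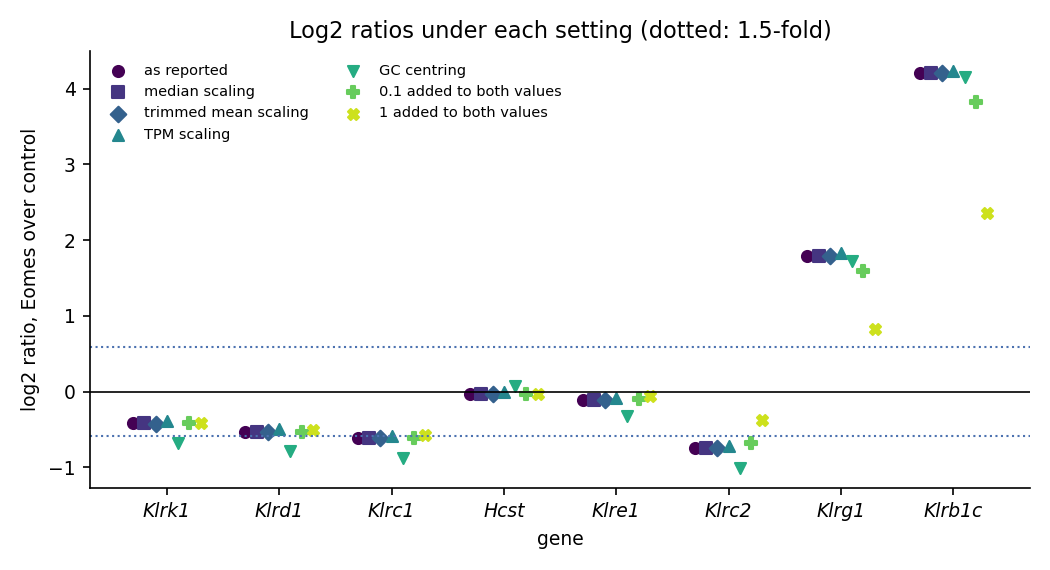
Log2 ratio (Eomes over control) of each gene as reported and under 6 other settings, with 1 marker shape per setting and dotted lines at 1.5-fold. The markers of *Klrk1* and *Klrd1* cross the lower line with GC centring alone, and those of *Klrb1c* and *Klrg1* stay above the upper line in all settings shown.

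The composition of the receptor repertoire was also different. The summed FPKM of the 7 receptor genes was 79.5 in control and 63.0 with Eomes overexpression. *Klrk1*, *Klrd1* and *Klrc1* together made up 95.5% of this sum in control and 85.0% with Eomes overexpression. The share of *Klrb1c* was 0.39% in control and 9.11% with Eomes overexpression, and that of *Klrg1* was 0.57% and 2.48%. The level of *Klrk1* was 108.5 times that of *Klrb1c* in control, and 4.36 times in Eomes-overexpressing cells. In RNA of whole cultures, more transcripts per cell and more cells carrying a transcript cannot be told apart.

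Of the 3 adaptors only *Fcer1g* was past 1.5-fold among those expressed. *Fcer1g*, which encodes the gamma chain used by NKR-P1C and by Fc receptors, was at an FPKM of 8.85 in control and 21.1 with Eomes overexpression. This gave a log2 ratio of 1.25 (interval 0.94 to 1.58, from about 114 and 271 reads). *Hcst* was close to equal, as given above. *Tyrobp*, which lies beside *Hcst* on chromosome 7 and encodes DAP12, was near the limit of the measurement, at 0.09 and 0.36 FPKM from about 1 and 4 reads. *Fcer1g* was at 0.55 times the level of *Hcst* in control and at 1.34 times in Eomes-overexpressing cells, so the order of these adaptors was exchanged. *Cd247*, which encodes the zeta chain of the T cell receptor complex, was at 83.9 and 80.9 FPKM.

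**Figure D4:**
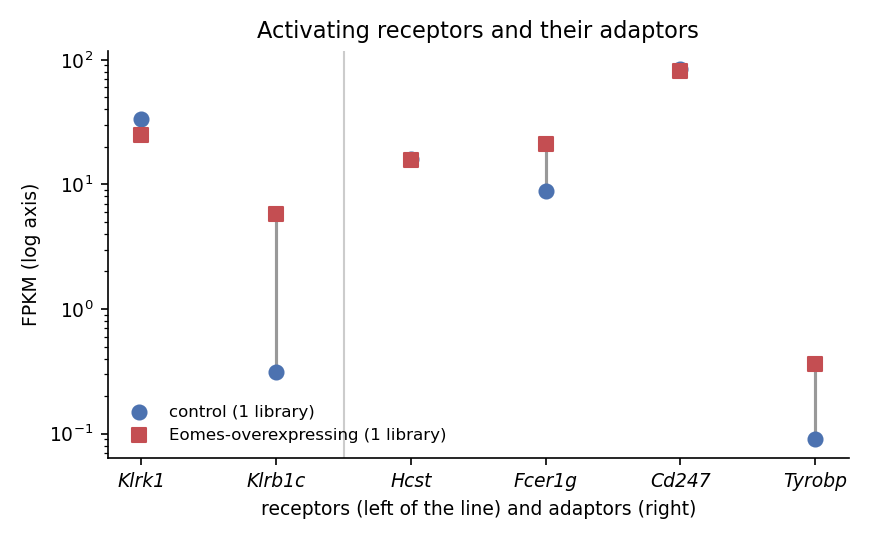
FPKM (log axis) of 2 activating receptor genes, left of the vertical line, and of 4 adaptor genes, right of it, in control (circles) and Eomes-overexpressing cells (squares), 1 library each. *Klrb1c* and its adaptor *Fcer1g* are both higher in Eomes-overexpressing cells, whereas the 2 markers of *Hcst* coincide and *Tyrobp* is under 1 in both.

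Downstream of the adaptors, most signalling genes were close to equal. Of 19 adaptor and signalling genes (with *Hcst*) 17 were expressed. Of these 2 were more than 1.5-fold higher, 0 lower and 15 within, beside 2.46% higher and 5.19% lower over all expressed genes. The 2 were *Fcer1g* and *Vav3*, a guanine nucleotide exchange factor, at 0.80 and 1.89 FPKM (log2 ratio 1.24, interval 0.74 to 1.73). *Sh2d2a*, which encodes a T cell adaptor, had a log2 ratio of 0.55 and *Pik3r1*, the regulatory subunit of the lipid kinase that DAP10 recruits, of 0.54, both within 1.5-fold. *Lck*, *Zap70* and *Lat*, which encode the proximal kinases and the scaffold of T cell receptor signalling, had log2 ratios of -0.14, -0.08 and -0.06. Over the 17 genes the median was -0.03. The phosphatase genes *Ptpn6*, *Ptpn11* and *Inpp5d*, whose products are recruited by inhibitory tails, were expressed, and all 3 lay within 1.5-fold (-0.41, 0.03 and 0.37).

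The position of the genes within the complex was followed by the direction of the difference only in part. *Klre1*, *Klrd1*, *Klrk1*, *Klrc2* and *Klrc1* lie in this order, and all 5 had log2 ratios under 0. The intervals of *Klre1* and *Klrc2* include 0. The median over all expressed genes was -0.0037, so a ratio under 0 is common among them. The nearest expressed gene on the far side of *Klrc1* was *Klra5*, a Ly49 family gene, at an FPKM of 6.01 in control and 4.01 with Eomes overexpression. Its log2 ratio was -0.58 (interval -0.99 to -0.19), narrowly within 1.5-fold. On the other side of the cluster, *Gabarapl1*, an autophagy gene of unrelated sequence, was at -0.36, and *Cd69*, the early activation antigen, was at -0.49. *Klrb1c* is separated from this cluster. Its nearest expressed neighbour was *BC035044*, 59.4 kb away, at 4.21 FPKM in control and 11.8 with Eomes overexpression, with a log2 ratio of 1.49 (interval 1.20 to 1.78). On its other side the nearest expressed gene was *Fkbp4*, 339.8 kb away, with a log2 ratio of 0.03. The expressed neighbours of *Klrg1* were *M6pr* (0.15) and, 1072 kb away, *Pex26* (-0.70), and those of *Hcst* were *Nfkbid* (0.38) and *Sdhaf1* (-0.20).

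**Figure D5:**
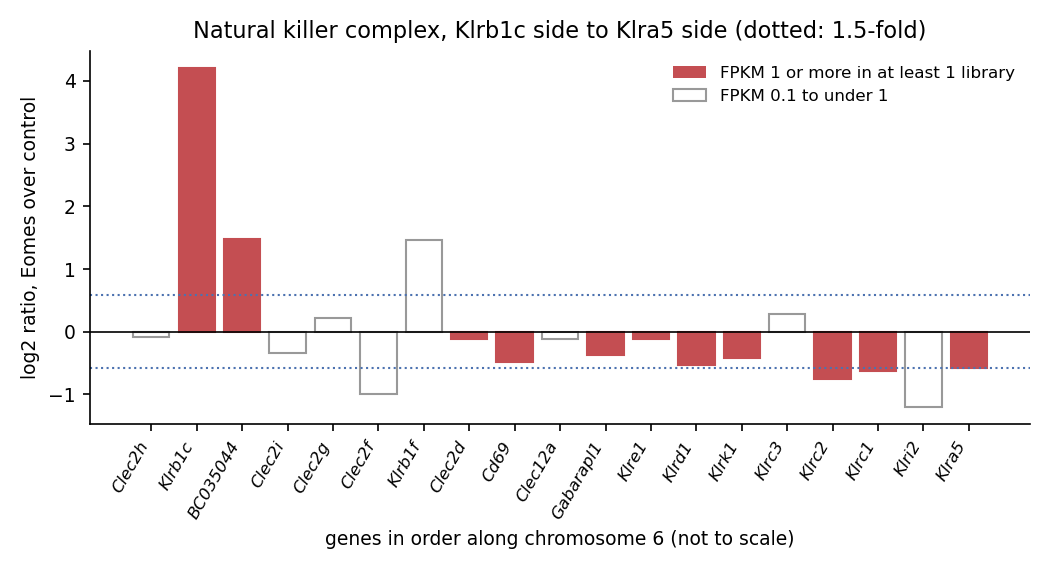
Log2 ratio (Eomes over control) of genes of the natural killer complex in their order along chromosome 6, not to scale, with filled bars for expressed genes, open bars for genes with an FPKM of 0.1 to under 1, dotted lines at 1.5-fold, and genes under 0.1 left out. *Klrb1c* and *BC035044* are the only filled bars above 0, and the filled bars from *Clec2d* to *Klra5* all lie under it.

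The other receptor genes of the family were scarcely detected. The annotation holds 23 further genes whose symbol starts with Klr, and 12 of them were listed in at least 1 library. Only *Klra5* was expressed. *Klrg2* was at 0.66 and 0.53 FPKM, *Klrb1f* at 0.12 and 0.33 and *Klrc3* at 0.14 and 0.17. *Klrb1a* was listed at 0.05 in Eomes-overexpressing cells alone and *Klrb1b* at 0.05 in control alone. Neither of these neighbours of *Klrb1c* reached the minimum in either library. Of 15 other C-type lectin genes of the complex 2 were expressed, *Cd69* and *Clec2d*, which encodes a ligand of NKR-P1 receptors (10.4 and 9.56 FPKM), and neither was past 1.5-fold. Their median log2 ratio was -0.30.

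Ligands of the receptors were transcribed by the T cells themselves. *H2-T23*, which encodes Qa-1, the ligand of CD94/NKG2 receptors, was at an FPKM of 120.0 in control and 90.7 with Eomes overexpression. Its log2 ratio was -0.40 (interval -0.48 to -0.33). *Ulbp1*, which encodes the NKG2D ligand MULT1, was at 9.86 and 13.3 FPKM (log2 ratio 0.43, interval 0.30 to 0.57). Of 18 ligand and class I genes 6 were expressed, with a median log2 ratio of -0.14. By more than 1.5-fold 1 was higher and 0 lower, beside 2.46% higher and 5.19% lower over all expressed genes. The 1 was *H2-Q10*, a secreted class I gene, at 1.71 FPKM in control and 6.43-fold higher with Eomes overexpression (log2 ratio 2.69, interval 2.26 to 3.15). Reads of *H2-Q10* can be shared with other class I genes. *Cdh1*, which encodes a cadherin ligand of KLRG1, was at 0.29 and 0.21 FPKM.

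Of 14 other receptor symbols shared by natural killer and CD8+ T cells, 8 were expressed, with a median log2 ratio of -0.0055. By 1.5-fold 2 were higher, 1 lower and 5 within, beside shares of 2.46% higher and 5.19% lower over all expressed genes. The higher genes were *Cd244* (0.99) and *Lair1* (0.84), and the lower was *Lilrb4a* (-0.70), which encode immunoglobulin-like receptors. The value of *Lair1* rests on about 6 and 10 reads by its shortest transcript and about 111 and 196 by its longest, and the interval of -0.86 to 2.49 holds for the shortest. *Il2rb*, the IL-15 and IL-2 receptor subunit shared with natural killer cells, was at 674.2 and 702.2 FPKM, and *Cd96* was at 33.7 and 32.1.

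The labelled cell type was checked on marker genes. All 8 CD8 T cell markers were expressed, with a summed FPKM of 2535 in control and 2162 with Eomes overexpression, and *Cd8a* was the 1 past 1.5-fold, at 181.8 and 99.1 FPKM (log2 ratio -0.88). Of 10 natural killer cell markers only *Fcer1g* was expressed. *Ncr1*, *Klra7*, *Klra8* and *Klra9* were listed in neither library. The summed FPKM of the 10 was 9.37 in control and 22.2 with Eomes overexpression, and without *Fcer1g* it was 0.52 and 1.07, with *Fcgr3* the highest at 0.23 and 0.50. The part of such cells in the difference in *Klrb1c* was not tested. The summed FPKM of 5 B cell markers was 2.87 and 1.62, of 6 myeloid markers 4.08 and 5.87, of 5 dendritic cell markers 2.72 and 1.91, and of 3 gamma delta T cell markers 0.75 and 1.30, and *Cd4* was at 0.03 and 0.08.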

How the data were processed

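RNA of 1 control and 1 Eomes-overexpressing OT-I culture was sequenced. The authors filtered reads with SOAPnuke, mapped them with HISAT and Bowtie2 to mm10 and computed expression with RSEM; annotation and versions are not given in the sources used here. The deposited FPKM values have 2 decimals and start at 0.01. The 20 symbols of control and 19 of Eomes-overexpressing cells that read as dates were left out. Multi-mapped reads are divided by RSEM, which bears on the *Klrc* genes.

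A gene not listed in a library was given the floor of 0.01. Log2 ratios and intervals came from scipy 1.17.1, pandas 2.3.3 and numpy 2.4.6 under Python 3.11.15, and figures from matplotlib 3.10.9. The threshold of 1.5-fold is that of the study. Depth was taken as the value at which FPKM, length minus 50 bases and depth gave the most nearly whole reads, over 218 and 212 low genes with 1 RefSeq-linked transcript in GENCODE vM21. The mean cosine of the distance to whole reads was 0.36 and 0.34, where 1 means whole reads throughout, so the depth is approximate; without the 50 bases it was 19.25 and 19.2 M reads, and with 100 bases 22.3 and 22.1 M reads. The steps were tested on simulated data with whole reads and known lengths. The deposited values need not have these, so the simulation does not show that the depth is right. Promoters are from RefSeq (GRCm38.p6).

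The genes, lists and settings were chosen with earlier results of these data known. Named genes were the 8 genes, listed genes past 1.5-fold and the most abundant others, other Klr genes at an FPKM of at least 0.1, expressed neighbours and the genes nearest in level. Further genes of these lists were named after their values were seen. Alternatives were pseudocounts of 0.1 and 1, 3 scalings, GC centring in 20 bins, a 2-fold threshold, and no minimum or a minimum of 5.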

Additional observations from a re-analysis of the deposited data

How the results depend on the processing

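Over 92 recomputed values, 75 kept their size within the counting interval or 1.5 times the count, 17 moved, and 0 changed sign among the genes past 1.5-fold. With 1 FPKM added to both values, the log2 ratio of *Klrb1c* was 2.36 and that of *Klrg1* 0.82, 0 of the 8 genes were lower, and 118 of all expressed genes were higher and 285 lower. With GC centring *Klrk1* was at -0.68 and *Klrd1* at -0.79, and 4 of the 8 genes were lower. Of all expressed genes 197 were then higher and 485 lower. At a 2-fold threshold 0 of the 8 genes were lower, and 69 of all expressed genes were higher and 175 lower. With a minimum FPKM of 5, 1 of the 8 was higher and 1 lower, and 95 of all genes were higher and 213 lower; without a minimum these were 1356 and 2088. The fewer or more genes tested follow from these minimums, and the fewer genes past 2-fold from the stricter threshold. An added 1 FPKM shrinks ratios, most at low values. GC centring removed a log2 shift of 0.26 from *Klrk1* and *Klrd1*. Why log2 ratios varied with GC content was not tested. The 3 scalings kept both counts of the 8 genes at 2. *Klrc2*, *Klrg1* and *Klre1* rest on fewer than 50 reads per library, which limits what their ratios show. The ratio of *Klrb1c* is limited in the same way by its control value, from about 10 reads.

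No paired analysis was possible because the 2 groups share only 1 replicate number, with 1 library each.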

Other observations

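For the genes past 1.5-fold, the genes nearest in log2 FPKM over the 2 libraries were looked up among 13344 genes listed in both. The nearest to *Klrb1c* were *Mcpt8*, a mast cell and basophil protease gene, at 0.37 FPKM in control and 3.94 in Eomes-overexpressing cells, and *2900011O08Rik* at 0.34 and 3.08. The nearest to *Klrg1* were *Zfp808* (0.51 and 1.32 FPKM) and *Kctd12* (0.50 and 1.26). The distance was 0.60 for *Mcpt8* and 0.30 for *Zfp808*, whereas *Klrc1* and *Klrc2* had neighbours within 0.04 and 0.01, *Trp53i13* (17.52 and 11.01 FPKM) and *Fads6* (1.30 and 0.78). With 2 libraries such likeness is in level alone.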
